A study of Mus musculus with 41 samples.

Results

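The mitochondrial respiratory chain is assembled from subunits encoded in the nucleus and in mitochondrial DNA, and the genes described here are the nuclear-encoded ones, taken from a table of mouse microglial RNA. They were chosen by name and by level. For complex I a symbol had to begin with Ndufa, Ndufb, Ndufc, Ndufs or Ndufv followed by a digit, so Ndufab1 and Ndufaf7 did not match. For the others it had to be Sdha to Sdhd (complex II) or begin with Uqcr (complex III), Cox4 to Cox8 (complex IV) or Atp5 (ATP synthase). A symbol was also to carry no pseudogene suffix. It also had to reach a mean of 1 CPM (the count over the column total, scaled to counts per 1000000 reads) in at least one group of microglial libraries. The count table holds 24537 symbols; 84 had such a name, and 74 of these also reached the floor. The 74 hold 36 symbols of complex I, 4 of complex II, 8 of complex III, 12 of complex IV and 12 of complex V. The remaining 2, Atp5s and Atp5sl, are named for ATP synthase but are listed by RefSeq as Dmac2l and Dmac2, so they are counted apart from the 72 subunits. Cox7a2l, a protein related to the complex IV subunits and described as joining complexes III and IV, is counted among the 72 by its name.

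The floor used measured levels, so passing it is not a result. There were 68 members at 1 CPM or more in each of the 5 microglial groups, and the floor did not select these for any difference between groups. Atp5k, Atp5s, Ndufb4 and Ndufs5 reached it in 4 groups, Cox6a2 in 3 and Cox4i2 in 1, so differences of these 6 are given as a description. Just inside the floor were Cox4i2, with a highest group mean of 2.30 CPM, and Ndufb4, with 3.27 CPM. Just outside were Atp5g1, at 0.786 CPM in its highest microglial group, Cox6b2, at 0.606 CPM, and Cox7a1, at 0.546 CPM. The other 7 outside were Cox7c (0.367 CPM), Atp5l (0.171 CPM), Atp5g2 (0.129 CPM), Cox8b (0.103 CPM) and Ndufa4l2 (0.0150 CPM), with Cox7b2 and Cox8c at 0. Cox7c, Atp5l and Atp5g2 were also below 1 CPM in whole brain lysate. RefSeq lists pseudogene copies of Atp5l and of the members Atp5k, Uqcrh, Cox5b, Ndufa12 and Atp5c1, so counts of these symbols are uncertain where the counting could split reads between copies.

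The study set microglia sorted from mouse brain against microglia kept in culture; the labels used here give no age. All RNA libraries came from C57Bl6 mice and were made from poly(A) RNA. The ex vivo group (5 libraries) was lysed straight after sorting of live CD11b+ CD45Low single cells. Cultured groups were kept in medium with 5% heat-inactivated serum and daily interleukin-34 (IL34), a ligand that keeps microglia alive, for 6 h (2 libraries), 24 h (3 libraries, of which replicate 2 is labelled 22 h) or 7 d (5 libraries). A further 7 d group had IL34 and TGFβ (2 libraries), a cytokine of the brain that maintains microglial genes. Whole brain lysate (4 libraries) is a mixture of all brain cell types. The labels do not say whether replicates came from separate mice, cultures or pools, so p-values measure the spread between these libraries, which may be technical.

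The chain passes electrons from NADH through complex I, and from succinate through complex II, to ubiquinone, on to complex III and cytochrome c, and by complex IV to oxygen. Complexes I, III and IV pump protons across the inner membrane, and ATP synthase (complex V) uses their return to make ATP. In the chain, core catalytic subunits are joined by many small accessory subunits. The 13 subunits encoded in mitochondrial DNA have no row under the symbols looked for and are not analysed here. In brain the chain is best known from neurons and astrocytes, while microglia are described as able to shift between oxidative and glycolytic metabolism.

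Library totals were 13.3 to 21.9 M counts (M, 1000000) ex vivo, 21.3 to 28.8 M in the cultured groups and 11.6 to 25.7 M in lysate. The cells were checked against 11 microglial marker genes, none of which was at 0 in any library. Their summed level was 43403 to 52415 CPM ex vivo, 4459.7 to 4553 at 6 h, 4803 to 5125 at 24 h, 17304 to 19117 at 7 d with TGFβ and 7565 to 11247 at 7 d without, against 313 to 408 in lysate. Among ex vivo libraries replicate 3 stood apart, with 109 CPM of the choroid plexus transcript Ttr against 0.748 to 34.0 in the other ex vivo libraries. Its summed markers were also highest for neurons (19.6 CPM, others 3.38 to 7.43), astrocytes (403, others 172 to 259) and oligodendrocytes (223, others 88.1 to 115). The same held for neutrophil and monocyte markers (134, others 5.62 to 97.8) and border macrophage markers (116, others 7.65 to 65.7), but not for endothelial markers. The summed level of 14 immediate-early genes, which are induced by stimulation and handling, was 42019.7, 4574, 1136, 25149 and 17957 CPM in ex vivo replicates 1 to 5, lowest in replicate 3, the ex vivo library with the highest share of counts in the chain's members. The part of these markers and genes in the members' ex vivo levels was not tested. Among 7 d libraries replicates 2 and 3 stood apart, with the highest summed levels of the chain's members and with a summed level of 16 proliferation genes of 1468 and 742 CPM, against 240.0 to 562 CPM in the other 7 d libraries. Every pair of replicates differed by more than sampling noise.

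The 74 members together took 0.187, 0.157, 0.246, 0.148 and 0.165% of all counts in the 5 ex vivo libraries. They took 0.192 and 0.207% at 6 h, 0.303, 0.347 and 0.330% at 24 h, 0.351 and 0.421% at 7 d with TGFβ and 0.412, 0.635, 0.628, 0.486 and 0.423% at 7 d without it. In lysate they took 0.774, 0.806, 0.634 and 0.648%. The 6 h libraries lay inside the ex vivo range, and every 24 h and 7 d library lay above it. Both TGFβ libraries lay above the ex vivo range, with the lower one below all 5 libraries of the 7 d group without TGFβ. In bulk RNA, fewer cells of a type and less RNA per cell cannot be told apart.

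**Figure D1:**
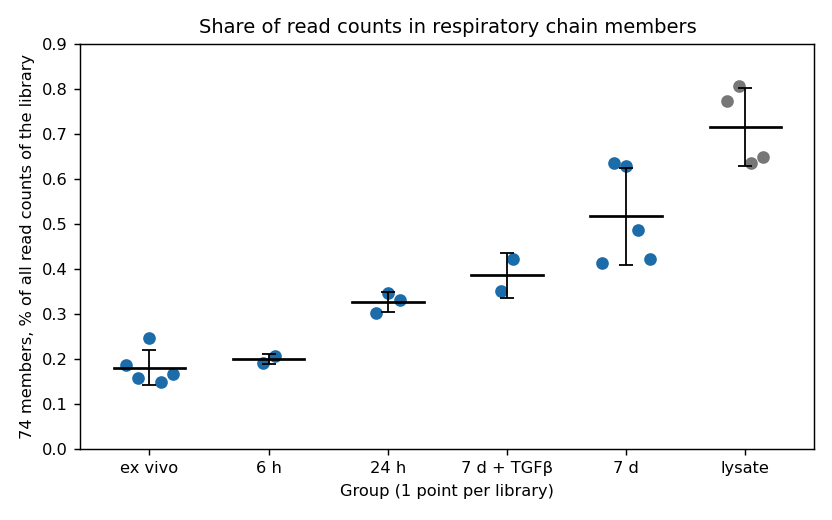
Share of each library's read counts (y axis, percent) taken by the 74 members, by group (x axis); 1 point is 1 library, bars are means and whiskers 1 SD. The ex vivo libraries sit between 0.148% and 0.246%, the 7 d libraries between 0.412% and 0.635%, and brain lysate between 0.634% and 0.806%.

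Levels were compared between genes per transcript length, in the deposited TPM values (reads per transcript length, scaled to a fixed total per library). In ex vivo microglia the median member of complex II stood at 64.2 TPM, of complex V at 39.9, of complex III at 32.3, of complex IV at 29.7 and of complex I at 27.6 TPM. The library medians ranged from 54.9 to 80.5 TPM for complex II and from 14.2 to 43.9 TPM for complex I, so the order of complexes III, IV and I did not stand out from the spread between libraries. At 7 d the medians were 165 TPM for complex V, 149 for complex IV, 135 for complex II, 88.8 for complex III and 74.9 for complex I. Atp5b, the catalytic beta subunit of ATP synthase, was the most abundant member of complex V in every group, at 589 ± 28.6 TPM at 7 d and 199 ± 19.0 TPM ex vivo (SD, n = 5 each). Cox4i1, the common isoform of the largest nuclear-encoded complex IV subunit, led complex IV in every group, at 519 ± 126 TPM at 7 d and 102 ± 44.5 TPM ex vivo. Ndufa4 led complex I at 7 d. It is now placed with complex IV by many authors and is counted under its complex I name here.

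The members' promoters were set beside the chromatin maps of ex vivo and 7 d microglia, since all 72 subunits were higher at 7 d than ex vivo, as described further on. RefSeq promoters (GRCm38.p6, 250 bases before to 50 after the start) were found for 61 of the 74 members, 3 of them by an older symbol. One promoter from each complex is shown, each chosen because it holds the NRF1 motif searched for, 5′ to 3′ on the gene's strand, with letters of every motif searched in capitals. Ndufa8 (chr2:36049289-36049588, minus strand) is an accessory subunit of complex I, Sdhb (chr4:140961021-140961320, plus strand) the iron-sulfur subunit of complex II, Uqcr11 (chr10:80406772-80407071, minus strand) a small subunit of complex III, Cox6a1 (chr5:115348909-115349208, minus strand) a subunit of complex IV, and Atp5k (chr5:108434350-108434649, minus strand) a small subunit of the membrane part of ATP synthase.
Ndufa8: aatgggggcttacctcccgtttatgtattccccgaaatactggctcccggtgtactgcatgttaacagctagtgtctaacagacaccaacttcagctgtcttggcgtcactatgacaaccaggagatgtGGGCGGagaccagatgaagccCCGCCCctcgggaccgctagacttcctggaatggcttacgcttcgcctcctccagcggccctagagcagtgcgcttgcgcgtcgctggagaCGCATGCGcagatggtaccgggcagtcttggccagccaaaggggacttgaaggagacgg
Sdhb: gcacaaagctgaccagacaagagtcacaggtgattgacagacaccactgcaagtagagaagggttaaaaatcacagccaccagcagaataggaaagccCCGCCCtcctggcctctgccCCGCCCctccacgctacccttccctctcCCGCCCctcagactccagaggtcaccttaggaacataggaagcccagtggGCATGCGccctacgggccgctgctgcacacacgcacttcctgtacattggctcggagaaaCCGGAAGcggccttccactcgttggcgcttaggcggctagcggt
Uqcr11: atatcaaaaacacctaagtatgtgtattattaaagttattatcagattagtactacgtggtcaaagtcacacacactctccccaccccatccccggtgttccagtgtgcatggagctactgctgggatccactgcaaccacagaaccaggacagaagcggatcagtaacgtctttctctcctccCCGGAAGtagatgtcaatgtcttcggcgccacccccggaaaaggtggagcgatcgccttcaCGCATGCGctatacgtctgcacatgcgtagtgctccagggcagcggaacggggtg
Cox6a1: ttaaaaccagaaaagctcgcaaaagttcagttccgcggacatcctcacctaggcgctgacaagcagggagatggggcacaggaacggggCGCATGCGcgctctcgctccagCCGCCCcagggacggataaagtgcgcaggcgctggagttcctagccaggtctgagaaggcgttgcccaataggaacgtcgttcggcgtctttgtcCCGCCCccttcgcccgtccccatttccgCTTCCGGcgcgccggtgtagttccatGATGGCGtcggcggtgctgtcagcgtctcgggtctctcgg
Atp5k: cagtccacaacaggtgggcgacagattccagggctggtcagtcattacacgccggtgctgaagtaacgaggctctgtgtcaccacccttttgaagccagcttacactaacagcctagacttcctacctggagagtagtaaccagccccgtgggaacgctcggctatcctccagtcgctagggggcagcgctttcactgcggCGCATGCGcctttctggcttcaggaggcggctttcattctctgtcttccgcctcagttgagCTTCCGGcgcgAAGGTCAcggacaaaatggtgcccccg

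The run CGCATGCG in Ndufa8, Uqcr11, Cox6a1 and Atp5k is the NRF1 core GCATGCG read on both strands with the matches overlapping. Sdhb holds GCATGCG once. NRF1 is a transcription factor long tied to respiratory genes. GCATGCG was found on either strand in 9 of 61 member promoters (14.8%), against 7.08% of the promoters of all genes tested with a promoter and 4.01% of all RefSeq promoters. The YY1 core GATGGCG was found in 10 members (16.4%, against 7.22% and 4.04%), the ERR core AAGGTCA in 7 (11.5%, against 4.04% and 5.38%) and the ETS core CCGGAAG in 15 (24.6%, against 19.4% and 9.93%). The SP1 box GGGCGG was found in 25 members (41.0%, against 66.3% and 38.2%). These are matches of letters on both strands, in windows of the same length, and not binding sites.

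All 61 member promoters had a peak of ATAC-seq (2 libraries each at 7 d and ex vivo, with 1 of the 7 d libraries labelled 8 d), which maps accessible chromatin, within 1 kb of a start at 7 d and ex vivo, where 88.7% of tested genes had one at 7 d and 88% ex vivo. A peak of H3K4me2, a histone mark of active promoters and enhancers, lay there ex vivo in all 61, against 91.5% of tested genes. H3K27ac, a mark of active regulatory regions, was called at 59 of 61 at 7 d and at 59 of 61 ex vivo, against 76.7% of tested genes at 7 d and 80.3% ex vivo. Atp5k had an H3K27ac peak at 7 d only, Atp5sl ex vivo only, and Ndufa5, a complex I accessory subunit, in neither. PU.1, the factor that specifies the microglial lineage, had a peak ex vivo at 53 of 61, against 72.5% of tested genes. The 8 without were Atp5o, Atp5sl, Ndufa3, Ndufa5, Ndufb3, Ndufb6, Sdha and Uqcrfs1. Each list is 1 pooled call over the replicates, per the file headers, so peak presence has no replicate check, and peak heights were not compared between lists.

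The first comparison asked how sorted microglia differ from the brain they come from. Counts were fitted with edgeR's quasi-likelihood test over all genes, with Benjamini-Hochberg adjustment, a threshold of 0.05, and CPM scaled by trimmed means (TMM). Nearly all of the chain's members were lower in sorted microglia. Of 73 members tested, 71 were lower and 0 higher in ex vivo microglia than in lysate, where 43.5% of all genes tested were lower and 39.1% higher. For 70 of the 73 members no ex vivo library reached the lowest lysate library, where 41.3% of all genes were lower with no overlap. Neither edgeR at an unadjusted p under 0.05 nor DESeq2 found a member higher. The median log2 fold change over the members was -2.12, against -0.10 over all genes. The 2 not called were Atp5s and Atp5sl, and Cox4i2 was too low to be tested. Markers of other cell types moved with this comparison, as 10 neuronal markers summed to 3.38 to 19.6 CPM ex vivo against 13091 to 14587 CPM in lysate, and 8 astrocyte markers summed to 172 to 403 against 4833 to 6782 CPM. All 10 and all 8 were lower ex vivo, and up to 4 neuronal markers and 1 astrocyte marker were at 0 in an ex vivo library. Their part in the result was not tested.

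In complex I all 36 members were lower ex vivo, by a median log2 fold change of -2.04. Ndufa5 stood at 3.11, 2.91, 4.85, 0.501 and 2.49 CPM ex vivo and at 45.5, 50.6, 26.7 and 26.8 CPM in lysate (-3.72 ± 0.43, adjusted p = 7.73e-06, log2 fold change ± SE), the largest fall of the complex. Ndufs1, a core subunit that carries iron-sulfur clusters, stood at 54.7, 59.8, 53.7, 55.1 and 50.3 CPM ex vivo and 106, 94.4, 101 and 99.7 CPM in lysate (-0.87 ± 0.10, adjusted p = 4.46e-06). The groups did not overlap for either gene. The 7 core subunits of complex I differed by a median of -0.99 and the 29 accessory subunits by a median of -2.16.

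Complex II had the smallest median difference, with all 4 members lower and a median of -0.89. Sdha, the flavoprotein that oxidises succinate, stood at 141, 134, 153, 154 and 154 CPM ex vivo and 314, 295, 297 and 283 CPM in lysate (-1.01 ± 0.10, adjusted p = 1.44e-06). Sdhd, a membrane anchor, stood at 44.3, 41.3, 49.5, 34.6 and 42.4 CPM ex vivo and 54.1, 55.1, 47.6 and 52.2 CPM in lysate (-0.30 ± 0.12, adjusted p = 0.0405), and was the one subunit called lower whose groups overlapped. All 8 members of complex III were lower, from Uqcr11 (-3.34 ± 0.53) to Uqcrc2, a core protein (-0.96 ± 0.11).

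Complex IV had the largest median difference, -2.66 over 11 members, all lower. Cox6c, a small subunit, stood at 6.44, 5.23, 12.2, 3.01 and 4.32 CPM ex vivo and 85.6, 94.8, 34.3 and 46.9 CPM in lysate (-3.37 ± 0.42, adjusted p = 2.01e-05). Cox4i1 stood at 49.6, 24.8, 67.6, 25.9 and 36.5 CPM ex vivo and 278, 315, 213 and 230.2 CPM in lysate (-2.66 ± 0.29, adjusted p = 3.97e-06). No ex vivo library reached the lowest lysate library for either gene. Cox7a2l differed least (-0.53 ± 0.15, adjusted p = 0.00529). In complex V all 12 members were lower by a median of -2.04, among them Atp5k (-3.46 ± 0.56), Atp5o of the stalk (-2.62 ± 0.17) and Atp5b (-1.89 ± 0.12).

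Culture was then compared with the ex vivo state at 6 h, 24 h and 7 d, in 1 model of the 17 microglial libraries, so the 3 comparisons share the same 5 ex vivo libraries. By 7 d each of the 72 subunits was higher than ex vivo. This was 72 members higher and 1 lower of 74 tested, where 34.8% of all genes were higher and 35.7% lower. The median log2 fold change was 1.98 over the members and -0.02 over all genes. Among the 67 subunits that reached the floor in every group, 67 were higher, with a median of 1.93. The groups did not overlap for 68 of the 72, where 26.1% of all genes were higher with no overlap. Leaving out any 1 library, or 7 d replicates 2 and 3 together, left 72 higher; without those 2 libraries the median was 1.62. The 1 lower was Atp5sl, which is no subunit. Other lists moved in this comparison too. Of 16 proliferation genes 14 were higher at 7 d, with a median of 2.65, and their summed level was 240.0 to 1468 CPM at 7 d and 117 to 233 CPM ex vivo. Of 14 immediate-early genes 13 were lower, with a median of -4.06, at a summed level of 958 to 1219 CPM at 7 d and 1136 to 42019.7 CPM ex vivo. Of 11 microglial markers 1 was higher and 10 lower. The part of these lists in the members' change was not tested. The members' groups that overlapped were those of Cox6a2, Cox7a2l, Ndufb3 and Ndufb11.

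**Figure D2:**
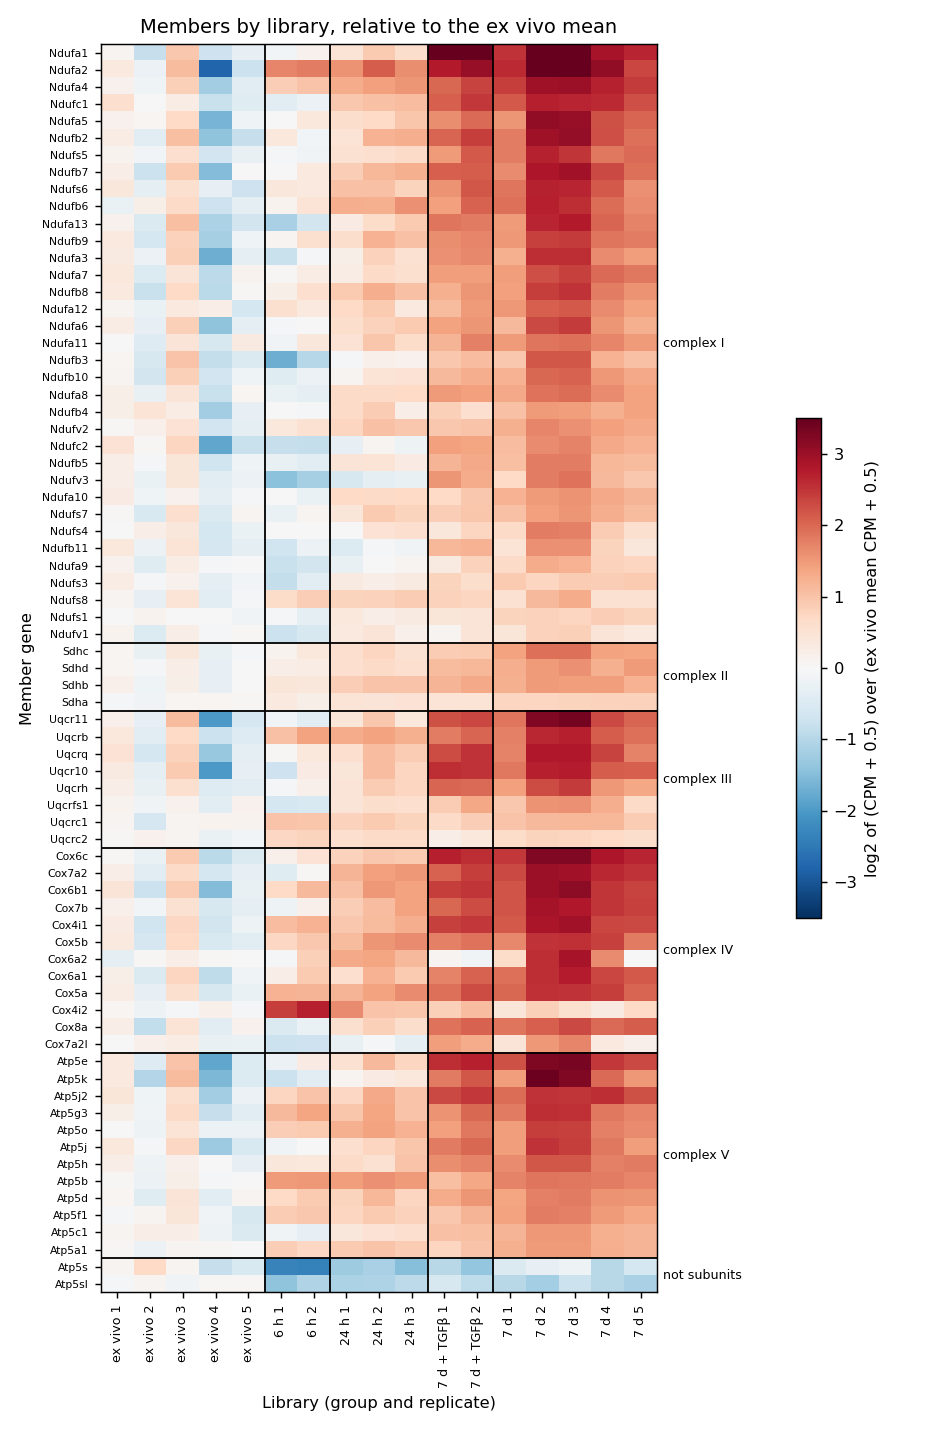
Members (rows, all but 1 of the 74, grouped by complex and ordered by the 7 d fold change) in each microglial library (columns), as log2 of its CPM plus 0.5 over the ex vivo mean plus 0.5; red is above the ex vivo mean and blue below. In the 7 d columns every subunit drawn is above its ex vivo mean except Cox6a2 in replicate 5.

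Complex I rose by a median log2 fold change of 1.74 at 7 d, with all 36 members called. The largest rise was that of Ndufa1, an accessory subunit of the membrane arm, which stood at 19.0, 43.9, 45.4, 24.6 and 21.2 CPM at 7 d and 3.16, 1.44, 6.13, 1.58 and 2.28 CPM ex vivo (3.36 ± 0.37, adjusted p = 7.19e-07). The lowest 7 d library lay well above the highest ex vivo library. Ndufa2, another accessory subunit, stood at 41.3, 84.7, 78.7, 59.1 and 34.6 CPM at 7 d and 8.26, 5.44, 14.2, 0.502 and 3.56 CPM ex vivo (3.19 ± 0.51, adjusted p = 4.85e-05), without overlap, and ex vivo replicate 4 was lowest. Ndufa4 stood at 55.3, 80.7, 81.6, 67.1 and 55.7 CPM at 7 d and 11.1, 8.94, 17.9, 3.94 and 7.51 CPM ex vivo (2.77 ± 0.28, adjusted p = 2.69e-07), again apart. Ndufa10, an accessory subunit of the membrane arm, had the smallest adjusted p of the complex (1.39 ± 0.12, adjusted p = 3.82e-08), and Ndufb8, another, rose as well (2.04 ± 0.30, adjusted p = 2.14e-05).

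The 7 core subunits of complex I, which bind NADH, flavin and the iron-sulfur clusters, rose less than its accessory subunits. Their median log2 fold change was 0.86, with Ndufv2 highest at 1.49. The 29 accessory subunits had a median of 2.04, from 0.98 (Ndufa9) to 3.36 (Ndufa1). Ndufv1, the NADH-binding subunit, stood at 48.7, 63.2, 64.9, 49.6 and 46.1 CPM at 7 d and 39.4, 26.0, 42.8, 35.5 and 37.1 CPM ex vivo (0.59 ± 0.14, adjusted p = 0.00121). Ndufs1 stood at 81.7, 82.3, 79.5, 85.6 and 81.6 CPM at 7 d and 47.2, 51.5, 46.5, 47.2 and 42.8 CPM ex vivo (0.80 ± 0.08, adjusted p = 1.85e-07). The 7 d and ex vivo libraries of both genes stayed apart, by little for Ndufv1. Roles were grouped after the values had been seen, and the difference between the 2 classes was not tested. Over all members the 7 d change also ran with implied transcript length, described further on (Spearman's rho -0.76). Role was not separated from length.

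Complex II rose as a whole, with a median of 1.41. Sdhb stood at 82.8, 98.6, 96.0, 97.4 and 81.7 CPM at 7 d and 39.3, 31.2, 40.1, 28.4 and 34.6 CPM ex vivo (1.39 ± 0.11, adjusted p = 5.27e-09). Sdhd stood at 89.2, 104, 111, 87.3 and 103 CPM at 7 d and 38.3, 35.5, 42.9, 29.7 and 36.1 CPM ex vivo (1.44 ± 0.10, adjusted p = 2.53e-09). The groups did not overlap for either gene. Sdha rose least, at 214, 214, 219, 223 and 220.0 CPM at 7 d and 122, 115, 132, 132 and 131 CPM ex vivo (0.79 ± 0.08, adjusted p = 1.10e-07), again without overlap.

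In complex III the 2 core proteins and the Rieske protein rose less than the 5 small subunits, by a median of 1.08 over these 3 and of 2.41 over the small ones. Uqcrc1, a core protein, stood at 135, 148, 151, 149.9 and 124 CPM at 7 d and 72.0, 44.8, 71.8, 73.7 and 73.3 CPM ex vivo (1.08 ± 0.12, adjusted p = 8.36e-07). Uqcrfs1, the Rieske iron-sulfur protein that hands electrons on to cytochrome c1, stood at 58.3 ± 15.7 CPM at 7 d and 24.2 ± 3.68 CPM ex vivo (SD, n = 5 each) without overlap (1.27 ± 0.17, adjusted p = 5.32e-06). These classes too were set after the values had been seen, and their difference was not tested. Here too role was not separated from implied transcript length. Uqcr11 rose most (2.83 ± 0.49, adjusted p = 1.05e-04).

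Complex IV had the largest median rise, 2.43 over 12 members. Cox4i1 stood at 158, 256, 273, 182 and 176 CPM at 7 d and 42.8, 21.4, 58.5, 22.2 and 31.0 CPM ex vivo (2.56 ± 0.25, adjusted p = 1.65e-07). Cox6c stood at 32.1, 55.4, 55.4, 41.3 and 36.5 CPM at 7 d and 5.57, 4.50, 10.6, 2.58 and 3.67 CPM ex vivo (3.01 ± 0.29, adjusted p = 1.34e-07), the largest rise of the complex. Cox7b, another small subunit, had the smallest adjusted p of the complex (2.65 ± 0.21, adjusted p = 1.10e-08). All 3 genes were higher in every 7 d library than in any ex vivo library. Cox5a (2.37 ± 0.20, adjusted p = 2.40e-08) and Cox5b (2.44 ± 0.30, adjusted p = 1.57e-06), both subunits of the nuclear-encoded ring around the catalytic core, rose alongside, as did Cox6a1 (2.39 ± 0.27, adjusted p = 1.05e-06), Cox6b1 (2.72 ± 0.36, adjusted p = 7.91e-06), Cox7a2 (2.74 ± 0.23, adjusted p = 1.72e-08) and Cox8a (2.10 ± 0.20, adjusted p = 7.88e-08). Cox7a2l overlapped between the groups, at 25.7, 54.1, 62.1, 23.8 and 21.3 CPM at 7 d and 18.4, 21.3, 22.3, 15.5 and 15.8 CPM ex vivo (1.00 ± 0.26, adjusted p = 0.00255).

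Complex V rose by a median of 2.03 over its 12 members. Atp5b stood at 642, 701, 691, 664 and 629.7 CPM at 7 d and 199, 167, 220.4, 183 and 192 CPM ex vivo (1.79 ± 0.10, adjusted p = 1.57e-10), the smallest adjusted p of the members. Atp5a1, the alpha subunit that alternates with beta in the catalytic ring, stood at 506, 605, 602, 525 and 491 CPM at 7 d and 222, 187, 231, 222 and 213 CPM ex vivo (1.34 ± 0.10, adjusted p = 4.26e-09). For both the lowest 7 d library lay far above the highest ex vivo one. Atp5g3, the one gene for the c ring of the membrane rotor that reached the floor, rose too (2.18 ± 0.26, adjusted p = 1.65e-06). Atp5sl fell (-1.01 ± 0.12, adjusted p = 8.34e-07) and Atp5s was not called (-0.53 ± 0.27).

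**Figure D3:**
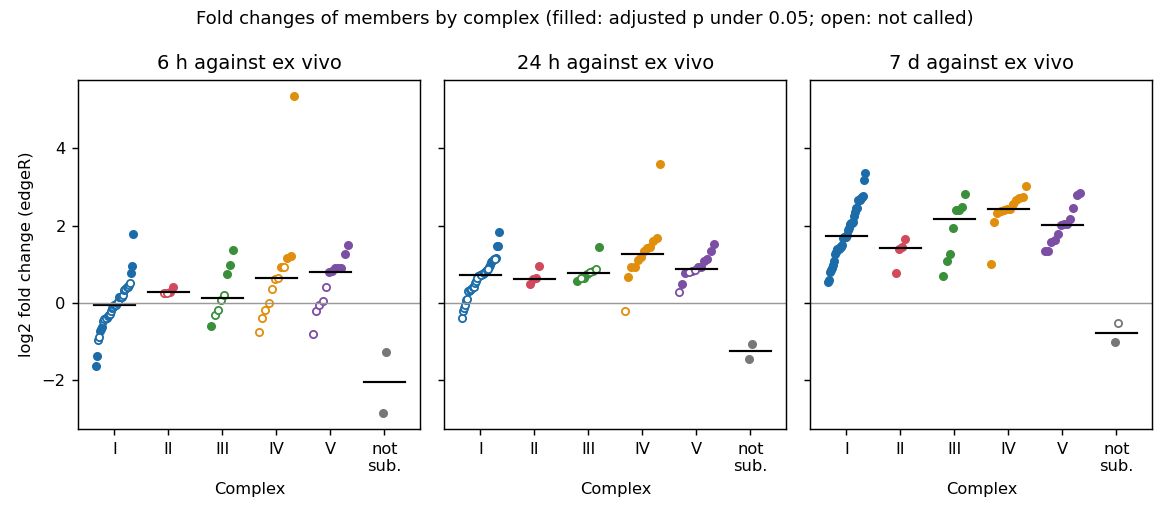
log2 fold changes (y axis) of members by complex (x axis) at 6 h, 24 h and 7 d against ex vivo; each point is 1 gene, filled where the adjusted p is under 0.05, and bars are medians. At 6 h the medians of complexes I to V run from -0.06 in complex I to 0.81 in complex V. At 7 d every point of complexes I to V is filled and above 0. The last column holds Atp5s and Atp5sl, which are no subunits, with a median of -2.06 at 6 h.

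At 6 h, 19 members were higher and 9 lower than ex vivo, where 31.2% of all genes were higher and 36.8% lower, and the median was 0.16 over the members and -0.17 over all genes. Both 6 h libraries lay above all ex vivo libraries for 22 members, where 33.2% of all genes did. With scaling by total counts, under which the median of all genes moved to -0.57, 8 were higher and 18 lower and the members' median was -0.26. Of 12 members of complex V, 7 were higher and 0 lower with edgeR (0 at an unadjusted p under 0.05, and 0 with DESeq2), with a median of 0.81; total-count scaling left 3 higher, Atp5a1, Atp5b and Atp5g3, and 1 lower, Atp5c1. In complex I, 3 were higher and 6 lower of 36, and under total counts 0 and 12. Atp5b stood at 543 and 550.4 CPM at 6 h against 199, 167, 220.4, 183 and 192 CPM ex vivo (1.51 ± 0.12, adjusted p = 1.29e-08), and remained higher under both scalings. Without 6 h replicate 1 the members called lower at 6 h fell to 3.

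Among the lower members of complex I at 6 h were Ndufa9, Ndufb3, Ndufs3, Ndufv1 and Ndufv3, and in complex III Uqcrfs1 was lower. These 6 genes were also lower under total-count scaling. Ndufv1 stood at 21.3 and 24.4 CPM at 6 h, below every ex vivo library (-0.66 ± 0.19, adjusted p = 0.00578). Ndufv3, an accessory subunit of the NADH-binding tip, stood at 5.42 and 6.72 CPM at 6 h and 18.4, 13.3, 21.1, 12.1 and 13.5 CPM ex vivo (-1.37 ± 0.32, adjusted p = 0.00118), and at 25.8, 55.0, 59.4, 35.1 and 30.6 CPM at 7 d. Uqcrfs1 stood at 15.5 and 16.7 CPM at 6 h (-0.59 ± 0.23, adjusted p = 0.0345), again below every ex vivo library, while Uqcrc1 stood at 135 and 133 CPM, above every one (0.99 ± 0.16, adjusted p = 2.51e-05). Uqcrc2 (0.75 ± 0.11, adjusted p = 1.28e-05) and Uqcrb (1.36 ± 0.37, adjusted p = 0.00385) were also higher. In complex II Sdhb (0.41 ± 0.14, adjusted p = 0.0126) and Sdha (0.29 ± 0.10, adjusted p = 0.0167) were called higher, and under total-count scaling neither was and Sdha turned to -0.12. Atp5s (-2.86 ± 0.44) and Atp5sl (-1.26 ± 0.16, adjusted p = 3.44e-06) fell.

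In complex IV at 6 h, Cox5a (1.22 ± 0.25, adjusted p = 3.25e-04), Cox4i1 (1.15 ± 0.30, adjusted p = 0.00294) and Cox5b (0.93 ± 0.37, adjusted p = 0.0356) were called higher, of which Cox5a was also called under total counts. Cox4i2, the isoform of subunit 4 known as induced by low oxygen, is a member through the 6 h group alone. It stood at 2.54 and 3.22 CPM at 6 h and 0.0928, 0, 0.0403, 0.143 and 0.0556 CPM ex vivo, a difference whose direction the choice of members fixes. It is counted among the 19 members called higher at 6 h and the 22 higher without overlap. It then stood at 1.28, 0.640 and 0.602 CPM at 24 h and 0.258, 0.514, 0.334, 0.198 and 0.427 CPM at 7 d. In every one of these libraries Cox4i1 was far higher, at 74.9 and 82.2 CPM at 6 h.

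At 24 h, 45 members were higher and 2 lower than ex vivo, where 29.6% of all genes were higher and 33.1% lower, and the median was 0.79 over the members and -0.06 over all genes. All 3 libraries of 24 h lay above all ex vivo libraries for 38 members, where 28.9% of all genes did. The 2 lower were Atp5s (-1.45 ± 0.33) and Atp5sl (-1.05 ± 0.14, adjusted p = 4.53e-06). Complex IV had 11 of 12 called higher with a median of 1.26, complex II 4 of 4 with 0.63, complex V 9 of 12 with 0.88, complex III 5 of 8 with 0.77 and complex I 16 of 36 with 0.73. Total-count scaling gave 45 and 2 as well. Cox7a2, a small subunit of complex IV, stood at 23.8, 28.2 and 29.7 CPM at 24 h, above every ex vivo library (1.42 ± 0.24, adjusted p = 8.50e-05), after 7.46 and 10.3 CPM at 6 h, which lay among them (-0.20 ± 0.30, adjusted p = 0.573). Cox6b1 (1.34 ± 0.39, adjusted p = 0.0074), Cox6a1 (0.93 ± 0.30, adjusted p = 0.0119), Cox8a (0.68 ± 0.22, adjusted p = 0.0123) and Ndufb8 (1.08 ± 0.33, adjusted p = 0.0102) were first called at this time. Cox6a1 overlapped the ex vivo libraries. Of the members already called at 6 h, Atp5b (1.52 ± 0.11, adjusted p = 4.06e-09), Atp5a1 (0.93 ± 0.11, adjusted p = 1.52e-06), Uqcrc2 (0.65 ± 0.10, adjusted p = 2.12e-05), Cox5a (1.46 ± 0.22, adjusted p = 2.04e-05) and Cox4i1 (1.12 ± 0.27, adjusted p = 0.00182) were higher at 24 h too. Ndufv1, lower at 6 h, was not called at 24 h (0.33 ± 0.16, adjusted p = 0.0788), and Uqcrfs1 was higher (0.56 ± 0.19, adjusted p = 0.0182).

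Counted by the time at which each subunit was first called higher than ex vivo, 19 were called from 6 h, 26 from 24 h and 27 at 7 d only. Of all genes tested, 31.2% were first called higher at 6 h, 7.37% at 24 h and 11% at 7 d. The 3 comparisons share the ex vivo libraries and differ in their number of cultured libraries, so these are counts of calls and not times of onset. Of the 27 at 7 d, 20 belong to complex I, which holds 36 of the 72 subunits and where 3 were called from 6 h. Of the 19 at 6 h, which include Cox4i2, 7 belong to complex V, which holds 12 of the 72. With total-count scaling 8 in place of 19 would be counted at 6 h.

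The steps in between were tested directly. From 6 h to 24 h, 20 members were higher and 1 lower at 24 h, where 22% of all genes were higher and 19.8% lower; total-count scaling gave 35 and 0, and leaving out 6 h replicate 1 or 2 left 6 or 9 higher. For 54 members every 24 h library lay above both 6 h libraries, where 36.3% of all genes did. Of the 20, 13 belong to complex I, which holds 36 of the 74 members tested. Ndufv1 stood at 45.8, 50.0 and 40.9 CPM at 24 h and 21.3 and 24.4 CPM at 6 h (1.00 ± 0.21, adjusted p = 0.00111). Uqcrfs1 stood at 33.2, 37.5 and 36.5 CPM at 24 h and 15.5 and 16.7 CPM at 6 h (1.15 ± 0.26, adjusted p = 0.00176). Atp5b differed by 0.01 ± 0.14 on the log2 scale between these times and was not called (adjusted p = 0.961). The 1 member lower was Cox4i2 (-1.77 ± 0.55), whose call was lost under total-count scaling and when any library of these times other than 24 h replicate 1 was left out. Cox4i2 is a member through the 6 h group alone, so the choice of members fixes this direction too.

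From 24 h to 7 d, 64 members were higher and 1 lower at 7 d, where 27.2% of all genes were higher and 21.6% lower, and the median was 1.06 over the members and 0.06 over all genes. For 66 members every 7 d library lay above every 24 h library, where 27.5% of all genes did. The 1 lower was again Cox4i2 (-1.26 ± 0.46), whose call was lost with the replicate block and on leaving out 24 h replicate 1 or 7 d replicate 1, 3 or 4. Other lists moved with this step as well. Of 6 border macrophage markers 5 were higher at 7 d, summing to 54.8 to 119.7 CPM at 7 d and 1.08 to 2.65 CPM at 24 h, most of it from Mrc1, and up to 1 of the 6 was at 0 in a 7 d library. Of 16 proliferation genes 13 were higher, summing to 240.0 to 1468 CPM at 7 d and 228 to 267 CPM at 24 h. Their part in the members' change was not tested. Ndufa1 stood at 19.0, 43.9, 45.4, 24.6 and 21.2 CPM at 7 d and 4.27, 5.93 and 4.73 CPM at 24 h (2.63 ± 0.43, adjusted p = 1.35e-04), the largest step. Cox8a (1.42 ± 0.23, adjusted p = 9.98e-05), Ndufv3 (1.78 ± 0.27, adjusted p = 5.13e-05) and Atp5h of the peripheral stalk (1.23 ± 0.18, adjusted p = 3.84e-05) rose clearly. The core proteins Uqcrc1 (0.24 ± 0.14, adjusted p = 0.164) and Uqcrc2 (0.05 ± 0.10, adjusted p = 0.721), and Ndufs8 of the complex I core (0.03 ± 0.21, adjusted p = 0.923), were not called between these times. Cox6a2, Ndufa2, Ndufb4, Ndufv1, Atp5b and Atp5sl were not called either.

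**Figure D4:**
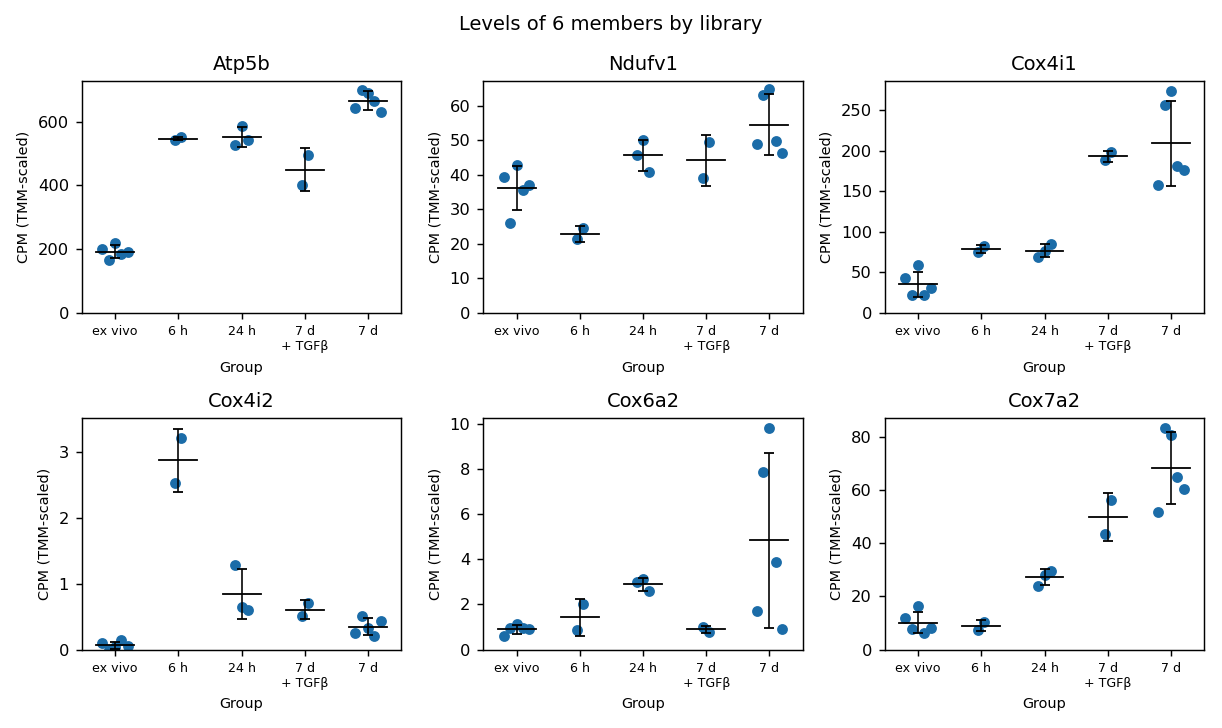
CPM (y axis, TMM-scaled) of 6 members in each microglial library by group (x axis); points are libraries, bars means and whiskers 1 SD. Atp5b reaches 543 and 550.4 CPM at 6 h, Ndufv1 dips to 21.3 and 24.4 CPM at 6 h, Cox4i2 peaks at 6 h, and Cox6a2 ranges from 0.896 to 9.81 CPM at 7 d.

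TGFβ was compared with its absence at 7 d. Of 74 members 0 were higher and 7 lower with TGFβ, where 9.57% of all genes were higher and 6.52% lower, and the median was -0.33 over the members and -0.04 over all genes. No member was higher with edgeR at an unadjusted p under 0.05, nor with DESeq2. Both TGFβ libraries lay below all 7 d libraries without it for 16 members, where 17.7% of all genes did, and above them for 0, where 16.3% did. The 7 were Atp5b (-0.57 ± 0.13, adjusted p = 0.00684), Sdhc (-0.74 ± 0.20, adjusted p = 0.018), Atp5a1 (-0.46 ± 0.13, adjusted p = 0.0233), Uqcrc2 (-0.39 ± 0.12, adjusted p = 0.0274), Ndufa10 (-0.55 ± 0.16, adjusted p = 0.0274), Ndufs1 (-0.36 ± 0.11, adjusted p = 0.0331) and Cox6a2. Atp5b stood at 401 and 496 CPM with TGFβ and 642, 701, 691, 664 and 629.7 CPM without it, and the groups did not overlap. Sdhc, a membrane anchor of complex II, stood at 74.2 and 75.4 CPM with TGFβ and 106, 153, 154, 106 and 105 CPM without it, also apart. Cox6a2, the isoform known from heart and muscle, stood at 1.01 and 0.779 CPM with TGFβ and 1.69, 7.89, 9.81, 3.88 and 0.896 CPM without it (-2.44 ± 0.74). It overlapped, and the floor was passed by the group without TGFβ and not by that with it, so the difference is given as a description.

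The calls with TGFβ rest on few libraries. Without 7 d replicates 2 and 3, the 2 libraries with the most proliferation transcripts in that group, 2 members were lower (Atp5b and Ndufs1) and 1 higher (Cox7a2l), and the members' median was -0.05. Without TGFβ replicate 1 the members lower came to 0, and without TGFβ replicate 2 to 1. The proliferation genes summed to 599 and 1870.2 CPM with TGFβ and 378, 1468, 742, 562 and 240.0 CPM without it; the groups overlapped. Of the 6 border macrophage markers 1 was called, Mrc1, which was lower with TGFβ, and they summed to 8.54 and 8.53 CPM with TGFβ and 64.5, 119.7, 88.2, 72.6 and 54.8 CPM without it, highest in 7 d replicates 2 and 3. Of 11 microglial markers 9 were higher with TGFβ. The part of these lists in the members' levels was not tested. Most members were not called, among them Cox4i1 (-0.11 ± 0.31, adjusted p = 0.865), Ndufv1 (-0.30 ± 0.19, adjusted p = 0.304), Uqcrfs1 (-0.12 ± 0.22, adjusted p = 0.791) and Sdhb (-0.12 ± 0.14, adjusted p = 0.61). Missing the threshold does not show that they were alike.

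Members differed in their 7 d rise with implied transcript length. Counts per TPM give an implied length of each transcript relative to the median gene, and 59 of the 74 members fell in the shortest of 5 equal length classes of the genes tested. Across the 74 members the Spearman correlation between implied length and the 7 d log2 fold change was -0.76, against -0.16 over the other genes tested; the points share libraries and fits, so this is a description. At 6 h the correlation over the members was -0.06. In that shortest class the members' median was 2.08 at 7 d, against 0.44 over the 2707 other genes there, of which 44.7% were called higher. By implied length Atp5k, Ndufa3, Ndufc1, Atp5e and Uqcr11 were the shortest, and Sdha, Ndufs1, Ndufa11 and Atp5a1 the longest. Implied length depends on how the deposited TPM were made, which is not stated, and may differ from the true length of a transcript. Replicates also differed more for some of these members than for others. At 7 d Uqcr11 stood at 51.0, 138, 142, 71.3 and 56.9 TPM in replicates 1 to 5. Sdha stood at 125, 126, 124, 132 and 127 TPM in the same libraries. Ndufc1 and Atp5a1 varied less than Uqcr11 and more than Sdha. The part of length in the members' values, and in this spread between replicates, was not tested.

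**Figure D5:**
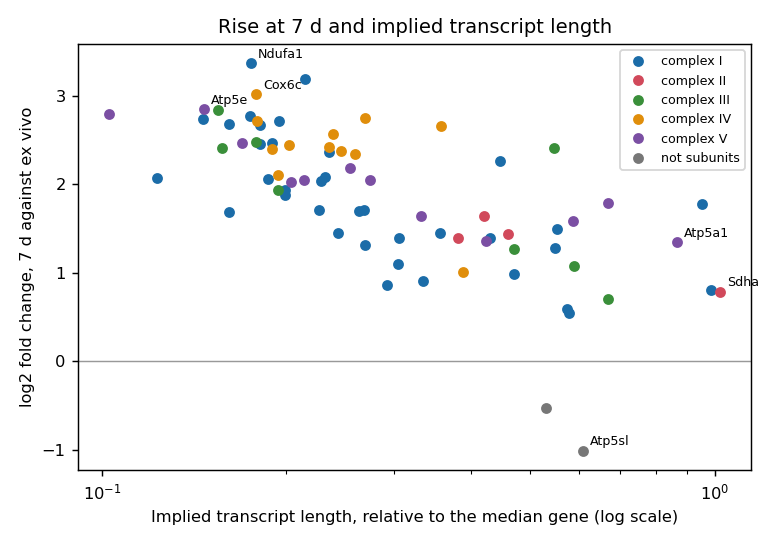
Implied transcript length relative to the median gene (x axis, log scale) and log2 fold change at 7 d against ex vivo (y axis), 1 point per member, coloured by complex. The points slope downward, from Ndufa1 at 3.36 to Sdha at 0.79, with Spearman's rho of -0.76 over the 74 members.

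Genes that build and serve the chain were listed apart from the members. Of 47 assembly factors 24 were higher and 5 lower at 7 d than ex vivo, where 34.8% of all genes were higher and 35.7% lower, with a median of 0.43 over the list. At 6 h 6 were higher and 20 lower, where 31.2% of all genes were higher and 36.8% lower, or 4 and 28 under total-count scaling. Coa5, which helps to assemble complex IV, rose at 7 d (1.30 ± 0.11, adjusted p = 3.42e-08), as did Coa3 (1.58 ± 0.19, adjusted p = 1.60e-06) and Sdhaf2, which attaches flavin to Sdha (0.84 ± 0.10, adjusted p = 2.08e-06). The 5 lower at 7 d were Bcs1l, Cox18, Foxred1, Ndufaf7 and Tmem186. Acad9, an assembly factor of complex I, was not called at 7 d (-0.28 ± 0.13, adjusted p = 0.0647), nor was Ttc19 (-0.27 ± 0.13, adjusted p = 0.0805). Of 18 genes for electron carriers and ubiquinone synthesis 10 were higher and 2 lower at 7 d. Etfa (1.80 ± 0.16, adjusted p = 3.04e-08), Cyc1 (1.05 ± 0.10, adjusted p = 1.04e-07) and Coq7 (2.73 ± 0.27, adjusted p = 1.55e-07) had the smallest adjusted p. Cyc1 encodes cytochrome c1, itself a subunit of complex III, and is outside the members only because of its name. The 2 lower were Coq2 and Coq8a. Cycs, cytochrome c itself, was not called (0.56 ± 0.35, adjusted p = 0.163).

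Of 18 genes of the tricarboxylic acid cycle and its entry, which feed electrons to complexes I and II, 12 were higher and 1 lower at 7 d, with a median of 0.87, against 34.8% higher and 35.7% lower over all genes, as for the other 7 d counts here. Cs, citrate synthase (1.09 ± 0.08, adjusted p = 3.54e-09), Mdh2 (1.59 ± 0.12, adjusted p = 4.92e-09) and Pdha1 (1.13 ± 0.10, adjusted p = 2.93e-08) had the smallest adjusted p, the 1 lower was Idh3g, and Idh2 was not called (-0.24 ± 0.15, adjusted p = 0.157). Of 21 genes of mitochondrial protein import 18 were higher and 0 lower at 7 d (0 lower with edgeR at an unadjusted p under 0.05 and with DESeq2), among them Hspa9, the import motor chaperone (1.80 ± 0.13, adjusted p = 2.08e-09), and Tomm6 (2.46 ± 0.24, adjusted p = 1.24e-07). Of 9 genes for ATP export, phosphate entry, ATP synthase inhibition and uncoupling, 7 were higher and 1 lower at 7 d, with Slc25a3, the phosphate carrier (1.41 ± 0.11, adjusted p = 1.02e-08), first; the 1 lower was Ucp1 (-1.62 ± 0.64, adjusted p = 0.0317).

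Regulators of mitochondrial biogenesis were tested too. Of 16, 0 were higher and 6 lower at 7 d with edgeR, with a median of -0.31, where 34.8% of all genes were higher and 35.7% lower, so the share lower was near that of all genes; 0 were higher at an unadjusted p under 0.05, and DESeq2 gave 0 higher and 8 lower. Twnk, the mitochondrial helicase, was lowest in adjusted p (-1.17 ± 0.14, adjusted p = 1.67e-06), followed by Gabpb1 (-0.49 ± 0.12, adjusted p = 0.0018) and Ssbp1 (-0.89 ± 0.25, adjusted p = 0.00497). Nrf1, the factor whose motif was searched for in the promoters, was not called at 7 d (-0.31 ± 0.15, adjusted p = 0.0726), nor was Polrmt, the mitochondrial RNA polymerase (-0.30 ± 0.14, adjusted p = 0.0538). Nrf1 and Polrmt were among the 8 that DESeq2 and total-count scaling called lower. The other 3 lower with edgeR were Gabpb2, Polg2 and Tfb2m.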

How the data were processed

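RNA-seq of 21 libraries was analysed, 17 of microglia and 4 of brain lysate, with 6 peak lists. The authors deposited counts per gene and TPM. The submitters' processing notes name HOMER, STAR, Bowtie2 and the mm10 build, with no roles. Peaks were called by HOMER on pooled replicates, per the file headers, and only their positions were used.

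Counts were tested with edgeR 4.0.16 (quasi-likelihood, TMM scaling, low-count filter, Benjamini-Hochberg adjustment over all genes, threshold 0.05), in 1 model of the microglial libraries (13840 genes) and 1 of ex vivo and lysate libraries (15335 genes). Printed CPM are TMM-scaled unless stated. Alternatives were DESeq2 1.42.0, other scalings, no filter, limma 3.58.1 on log2(TPM + 1), a replicate block and leaving out libraries. The code was tested on simulated data. Of simulated 2-fold changes, 32% were recovered at 6 h, 47% at 24 h and 58% at 7 d against ex vivo. The share was 36.5% from 6 h to 24 h, 58.5% from 24 h to 7 d, 46.5% with TGFβ and 52% against lysate. Counts of calls are thus not alike in power between comparisons. Roles within a complex were grouped after the values were seen, and the members and lists were chosen with earlier results of these data known. Named members were a fixed set of central subunits and isoform sets, and in each comparison the 3 largest called rises and falls at 5 CPM or more and the smallest adjusted p of each complex, of which the text gives a part; other members were chosen after their values were seen. Of each other list, the text names at most 3 called genes, taken by adjusted p, and at most 2 that were not called. Values of 1 member are not reported here, though it is kept in counts and medians. Precision follows the number of libraries in a group and total counts of 11.6 to 28.8 M (M, 1000000) a library.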

Additional observations from a re-analysis of the deposited data

Results flagged for a closer look

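In groups of 4 or 5 libraries, 3 members had 1 library whose gap to the nearest of the others was large for the group's range; of 66 such groups tested, chance marks about 1 in 20. Uqcrc1, a core protein of complex III, stood at 44.8 CPM in ex vivo replicate 2, below the other ex vivo libraries, which ran from 71.8 to 73.7 CPM. Uqcrfs1, the Rieske protein, stood at 83.1 CPM in lysate replicate 3, below the other lysate libraries at 89.2 to 89.5 CPM. Cox5b stood at 30.2 CPM in lysate replicate 2, above the others at 21.2 to 22.0 CPM.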

How the results depend on the processing

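The members' counts were recomputed under 232 combinations of a count and an alternative, of which 195 stayed within 1.5 times the count given in the report. At 6 h, total-count scaling gave 8 higher and 18 lower, log2(TPM + 1) and log2(TPM + 0.1) gave 11 and 16 each, and log2(TPM + 1) without a filter gave 11 and 14. From 6 h to 24 h, total-count scaling gave 35 higher and 0 lower, and the same 3 TPM settings gave 36, 35 and 33 higher. At 7 d, 2 were lower under DESeq2, the 3 TPM settings and without 7 d replicates 2 and 3. With TGFβ, 4 were lower without the low-count filter, and without 7 d replicates 2 and 3 there were 1 higher and 2 lower. Sdha at 6 h turned to -0.12 under total-count scaling and -0.10 under each TPM setting. These causes were not tested.

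Leaving out 1 library at a time gave 70 to 71 lower against lysate, 13 to 25 higher and 3 to 10 lower at 6 h, 37 to 60 higher and 2 lower at 24 h, 72 higher and 1 to 2 lower at 7 d, 6 to 20 higher and 0 to 1 lower from 6 h to 24 h, 44 to 65 higher and 0 to 1 lower from 24 h to 7 d, and 0 to 7 lower and 0 higher with TGFβ. Deviations of same-numbered microglial libraries had a median r of -0.0066, with r above 0.1 in 5 of 25 pairs. Differently numbered libraries had a median of 0.0051, with r above 0.1 in 6 of 86 pairs. Whether the replicate numbers pair the libraries cannot be told from this. With the replicate block, members higher and lower came to 18 and 9 at 6 h, 44 and 3 at 24 h, 72 and 1 at 7 d, 19 and 1 from 6 h to 24 h, 65 and 0 from 24 h to 7 d, 0 and 6 with TGFβ and 0 and 70 against lysate.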
